A study of Mus musculus with 19 samples.

Results

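The genes described here encode cytokines of the interleukin-6 (IL-6), interleukin-10 (IL-10) and interleukin-12 (IL-12) families, together with the ligand-binding chain of the IL-10 receptor, in CD11b+ cells isolated from the mouse brain. They were chosen by name and comprised 10 of the 56980 genes in the count table, namely *Il6*, *Lif*, *Osm*, *Il10*, *Il10ra*, *Il12a*, *Il12b*, *Il23a*, *Il27* and *Ebi3*, each of which matched 1 Ensembl gene. All 10 passed the low-count filter that left 18739 genes for testing, although *Il12a* and *Il23a* reached its level in LPS libraries only, and *Il10* and *Il12b* did so in 3 and 2 of the 9 baseline libraries, so that these genes were in the test largely because they were high after LPS.

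The libraries came from 19 male mice aged 3 to 4 months, each carrying or lacking the gene-trap allele *Park7* Gt(XE726)Byg, which removes the protein DJ-1 from the whole body and not from microglia alone. Mice of this line, backcrossed to C57BL/6NCrl, were compared with their wildtype littermates 6 h after a single intraperitoneal injection of lipopolysaccharide (LPS, from *E. coli* O55:B5, 4 μg per g body weight) or of PBS, which is called baseline here. There were 4 wildtype and 5 *PARK7*/DJ-1 KO mice at baseline and 5 of each genotype after LPS. In every group the cells were enriched with magnetic beads against CD11b, an integrin of microglia that other myeloid cells also carry, after perfusion and removal of the olfactory bulb and cerebellum.

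Cytokines of these families are secreted by activated macrophages and microglia when Toll-like receptors sense bacterial products such as LPS. IL-6, LIF and oncostatin M signal through receptors that contain the shared chain gp130 and activate STAT3, IL-10 dampens inflammatory gene expression through its own receptor and STAT3, and the IL-12 family consists of dimers of a helical chain and a receptor-like chain. The p40 chain encoded by *Il12b* pairs with p35 (*Il12a*) to form IL-12 and with p19 (*Il23a*) to form IL-23, whereas the chain encoded by *Ebi3* pairs with p28 (*Il27*) to form IL-27 and with p35 to form IL-35.

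Total counts ranged from 11936364 to 22788884 per library (median 17211939), so that 3 counts, used here as the floor, corresponded to 0.139 to 0.256 CPM (counts scaled to library size with edgeR's TMM factors), a limit that covers counting error only. *Park7* was lower in KO than in wildtype cells at baseline (1.66 ± 0.962 CPM, SD, n = 5, against 22.3 ± 2.08 CPM, n = 4) and after LPS (3.45 ± 1.72 against 25.3 ± 3.91 CPM, n = 5 each), as the labels state. Microglial markers, 9 genes including *P2ry12* and *Tmem119*, summed to between 25267 and 40571 CPM at baseline and between 10565 and 17005 CPM after LPS. The median sum of 6 monocyte markers was 214 CPM in wildtype and 195 CPM in KO at baseline and 563 and 523 CPM after LPS, and that of 8 neutrophil markers 73.1 and 67.0 CPM at baseline and 238 and 299 CPM after LPS. The median sum of 7 markers of border-associated macrophages was 616 and 529.5 CPM at baseline and 352 and 355 CPM after LPS, that of 5 endothelial markers 609 and 537 CPM and then 332 and 262 CPM, and that of 5 astrocyte markers 499 and 588 CPM and then 838 and 782 CPM. The astrocyte sums overlapped, at 387 to 1288 CPM at baseline and 439 to 1238 CPM after LPS in wildtype. In the wildtype test 5 of the 6 monocyte, 4 of the 8 neutrophil and 1 of the 5 astrocyte markers were higher after LPS. Lower were 4 of the 7 markers of border-associated macrophages and 3 of the 5 endothelial markers. No marker of these sets passed in the opposite direction. Over all tested genes 18.4% were higher and 17.4% lower. The median sum of 7 dendritic cell markers was 44.5 CPM in wildtype and 37.1 CPM in KO at baseline and 72.0 and 78.9 CPM after LPS. Of the 5 of them that were tested, 1 was higher and 3 were lower after LPS in wildtype. For 4 B cell markers the median sum was 9.07 and 9.27 CPM at baseline and 2.10 and 1.95 CPM after LPS. T and NK cell markers (9 genes) summed to at most 17.0 CPM in any library. The summed markers of oligodendrocytes (5 genes) differed widely within every group, from 515 to 11235 CPM over the 19 libraries. In these bulk libraries a change in the number of cells of a type and a change in RNA per cell cannot be told apart, and the part that these markers had in the results below was not tested.

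The first question was whether LPS changed the expression of the cytokine genes in wildtype cells and in KO cells. In each genotype 9 of the 10 genes were higher after LPS (adjusted p under 0.05 and |log2FC| of at least 0.5), and no gene of the 10 was lower. The background over the 18739 tested genes was 18.4% higher and 17.4% lower for wildtype, with 20.1% and 19% for KO. The values of the LPS and baseline libraries did not overlap for 9 of the 10 genes in wildtype and for 8 in KO, against 37.8% and 32.8% of all tested genes. The median log2FC of the 10 genes was 3.18 in wildtype and 3.15 in KO, or 2.61 and 2.84 with *Il12a*, which had no count at baseline, at its lower bound, and that of all tested genes was -0.06 and -0.01. Genes that could enter the test only because of their LPS libraries had to differ, so these counts describe the set and are no support for it. The exception was *Il10ra*, for which the test was not passed in either genotype. The plot of CPM by library shows the 4 groups of each gene.

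**Figure D1:**
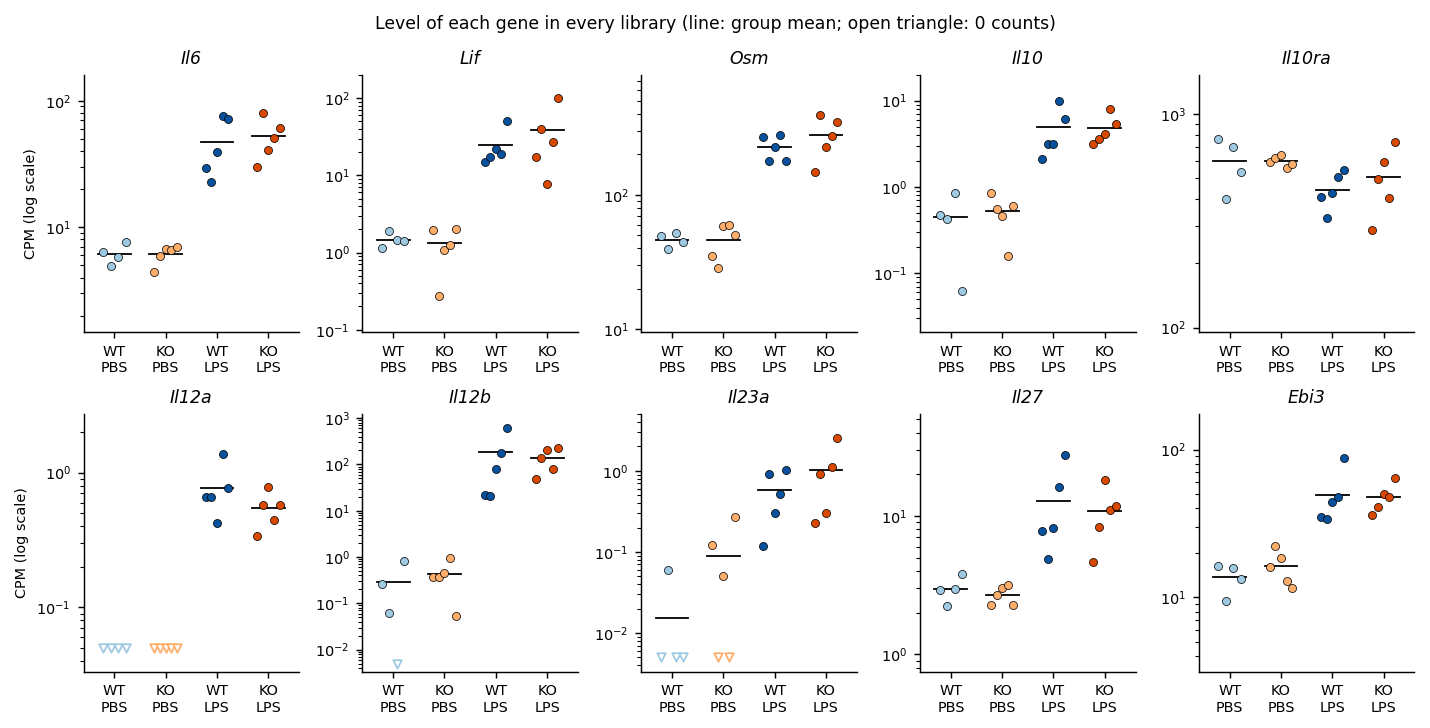
CPM of each gene on a log axis, 1 panel per gene and 1 point per library, for wildtype (WT) and *PARK7*/DJ-1 KO mice at baseline (PBS) and 6 h after LPS, with group means as lines and libraries without a count as open triangles. Points after LPS lie above those at baseline for 9 genes in wildtype and for 8 in KO, *Il10ra* overlaps in both genotypes, and the highest *Il12b* point is a wildtype LPS library at 619 CPM.

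Among the ligands of the IL-6 family, *Il6* (chromosome 5, 30218112 to 30224979, GRCm39) encodes the cytokine that drives fever and the acute phase response. It measured 6.36, 4.91, 5.85 and 7.64 CPM in the 4 wildtype baseline libraries and 29.2, 22.6, 39.3, 75.1 and 71.3 CPM in the 5 wildtype LPS libraries. In KO mice it measured 4.42, 5.87, 6.76, 6.65 and 6.97 CPM at baseline and 30.0, 80.5, 40.9, 50.8 and 61.4 CPM after LPS. Every LPS library was above every baseline library of either genotype, and the LPS libraries of the 2 genotypes covered nearly the same range. *Il6* rose 7.66-fold in wildtype (log2FC 2.94 ± 0.354, SE, adjusted p = 2.02e-06) and 8.58-fold in KO (3.10 ± 0.326, adjusted p = 2.94e-07).

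*Osm* encodes oncostatin M, a gp130 cytokine of myeloid cells that acts on endothelial cells, astrocytes and other stromal cells. It was already present at baseline, at 49.4, 39.6, 51.6 and 44.8 CPM in wildtype and 35.2, 28.3, 59.0, 59.6 and 49.8 CPM in KO. After LPS it reached 270.5, 179, 226, 277 and 179 CPM in wildtype and 148, 394, 227, 275 and 351 CPM in KO. The groups before and after LPS were apart in both genotypes, while the KO libraries spread more widely than the wildtype libraries and enclosed them. The rise was 4.88-fold in wildtype (log2FC 2.29 ± 0.271, adjusted p = 1.61e-06) and 6.01-fold in KO (2.59 ± 0.252, adjusted p = 1.15e-07).

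*Lif*, which encodes leukemia inhibitory factor, lies next to *Osm* on chromosome 11 (*Osm* at 4186420 to 4191026 and *Lif* at 4207557 to 4222514, both on the + strand), with 16530 bp between them. *Lif* was low at baseline, with 1.15, 1.88, 1.45 and 1.43 CPM in wildtype and 1.96, 0.277, 1.07, 1.26 and 2.00 CPM in KO. After LPS it measured 14.9, 17.0, 21.9, 18.98 and 50.5 CPM in wildtype and 17.2, 39.3, 7.78, 27.0 and 101 CPM in KO. In both genotypes replicate 5 was the highest library, and in KO the highest value was 13.004 times the lowest, the largest such spread of the 3 IL-6 family ligands. *Lif* rose 16.6-fold in wildtype (log2FC 4.06 ± 0.677, adjusted p = 7.65e-05) and 29.4-fold in KO (4.88 ± 0.635, adjusted p = 3.87e-06), or by 4.13 on the log2 scale in KO without replicate 5. *Osm* was the more abundant of these neighbours, with a count per kb of exon that was 7.19 to 36.7 times that of *Lif* in the wildtype and 7.04 to 59.0 times in the KO libraries after LPS.

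*Il10* (chromosome 1, 130947581 to 130952711), the main anti-inflammatory cytokine of macrophages, was close to the detection floor at baseline, with 9, 7, 13 and 1 counts in wildtype and 14, 12, 9, 3 and 11 counts in KO. After LPS it reached 35, 48, 52, 154 and 71 counts in wildtype (2.09, 3.16, 3.13, 10.01 and 6.05 CPM) and 56, 62, 69, 141 and 75 counts in KO (3.15, 3.54, 4.13, 7.89 and 5.41 CPM). No LPS library was as low as a baseline library, and replicate 4 was the highest LPS library in each genotype. *Il10* rose 10.7-fold in wildtype (log2FC 3.42 ± 0.586, adjusted p = 0.000102) and 9.15-fold in KO (3.19 ± 0.522, adjusted p = 5.09e-05). Since it reached the low-count filter mainly in LPS libraries, these p-values are a description and not support.

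Its receptor chain *Il10ra* (chromosome 9, 45165132 to 45180563) was expressed throughout. It measured 765, 399, 703 and 535 CPM in wildtype at baseline and 407, 327, 429, 509 and 544 CPM after LPS, and 597, 625, 642, 559.7 and 586 CPM in KO at baseline and 285, 498, 597, 407 and 742 CPM after LPS. The ranges overlapped in both genotypes. The log2FC was -0.44 ± 0.227 in wildtype (95% interval -0.91 to 0.04, adjusted p = 0.134) and -0.25 ± 0.214 in KO (-0.70 to 0.20, adjusted p = 0.368). When the library with the highest oligodendrocyte markers was left out of each group, *Il10ra* in wildtype passed the test as lower after LPS, with a log2FC of -0.52 (adjusted p = 0.0469), whereas in KO the log2FC was -0.09 (adjusted p = 0.711).

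Among the IL-12 family genes, *Il12b* (chromosome 11, 44290808 to 44305505), which encodes p40, showed the largest log2FC of the 9 genes with counts at baseline. At baseline it was near the floor, with 5, 1, 0 and 13 counts in wildtype and 6, 8, 9, 18 and 1 counts in KO. After LPS it reached 22.01, 21.04, 77.9, 180.2 and 619 CPM in wildtype and 49.2, 136, 202, 80.9 and 231 CPM in KO. The lowest wildtype LPS library was still far above the highest baseline library, but the 5 wildtype values covered a 29.4-fold range, and the KO values a 4.68-fold range that lay inside it. The ratio of summed counts, scaled by library size, was 560.0 in wildtype (12018 against 19 counts, 95% counting interval 358 to 930.4) and 305 in KO (11273 against 42 counts, 226 to 424). In the fit across all genes the log2FC was 9.31 ± 1.25 in wildtype (adjusted p = 6.91e-06) and 8.29 ± 1.05 in KO (adjusted p = 2.96e-06). The wildtype value was 8.02 without LPS replicate 5 and 10.55 without baseline replicate 4. Because *Il12b* reached the low-count filter mainly in LPS libraries, its p-values too are a description and not support.

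The partner chains of p40 stayed scarce. *Il12a* (chromosome 3, 68597977 to 68605880), which encodes p35, had 0 counts in each of the 9 baseline libraries, 11, 10, 7, 21 and 9 counts in the wildtype LPS libraries and 6, 10, 13, 8 and 8 counts in the KO LPS libraries. Against a floor of 3 counts per baseline library, its mean was at least 4.29-fold higher after LPS in wildtype (adjusted p = 3.19e-05) and at least 3.41-fold higher in KO (adjusted p = 2.18e-05). *Il23a* (chromosome 10, 128132008 to 128134621), which encodes p19, had 0, 1, 0 and 0 counts in wildtype and 2, 0, 1, 0 and 5 counts in KO at baseline. It had 2, 14, 5, 8 and 12 counts in wildtype and 4, 16, 5, 20 and 35 counts in KO after LPS. The values at baseline and after LPS were apart in wildtype and overlapped in KO. The ratio of its summed counts was 36.3 in wildtype (41 against 1, 95% counting interval 6.16 to 1468) and 11.4 in KO (80 against 8, 5.50 to 27.2), with adjusted p = 0.00449 and 0.0022 in the fit. The wildtype values rest on the 1 count of baseline replicate 2, without which the wildtype baseline is at 0 and no count sets the size of the fold. In the fit the wildtype log2FC was 4.68, and with 1 library left out it ranged from 4.34 to 6.29. In KO the log2FC in the fit was 3.44, with 2.81 without LPS replicate 5 and 4.43 without baseline replicate 5. Both *Il12a* and *Il23a* reached the low-count filter only in LPS libraries and so had to differ, and their p-values are given as a description and not as support.

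The chains of IL-27 rose less, from a higher starting point. *Il27* (chromosome 7, 126188181 to 126194209), which encodes p28, measured 2.92, 2.24, 2.96 and 3.79 CPM in wildtype and 2.27, 2.68, 3.00, 3.20 and 2.27 CPM in KO at baseline. After LPS it measured 7.75, 4.87, 8.19, 16.3 and 27.5 CPM in wildtype and 4.61, 8.29, 18.2, 11.1 and 11.8 CPM in KO. The groups were apart in both genotypes, with replicate 5 the highest in wildtype and replicate 3 the highest in KO. *Il27* rose 4.32-fold in wildtype (log2FC 2.11 ± 0.442, adjusted p = 0.000708) and 4.02-fold in KO (2.01 ± 0.406, adjusted p = 0.000441).

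*Ebi3* (chromosome 17, 56259270 to 56264023) measured 16.4, 9.39, 15.9 and 13.3 CPM in wildtype and 16.0, 22.4, 18.5, 12.9 and 11.6 CPM in KO at baseline. After LPS it measured 34.8, 33.9, 43.8, 47.7 and 87.3 CPM in wildtype and 36.3, 41.1, 49.8, 48.0 and 64.4 CPM in KO. The groups were again apart, and apart from replicate 5 of each genotype the LPS libraries lay close together. *Ebi3* rose 3.599-fold in wildtype (log2FC 1.85 ± 0.280, adjusted p = 2.72e-05) and 2.95-fold in KO (1.56 ± 0.256, adjusted p = 5.31e-05), the smallest rise of the genes that passed the test. The annotation places non-coding genes on the opposite strand of *Ebi3*, *Il6* and *Il12a* and an end of the protein-coding gene *Apobr* opposite *Il27*. A microRNA gene, *Mir7086*, lies on the same strand within *Il10ra*, with 230 counts in total. The library kit was stranded, but how the counts used the strand was not tested.

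**Figure D2:**
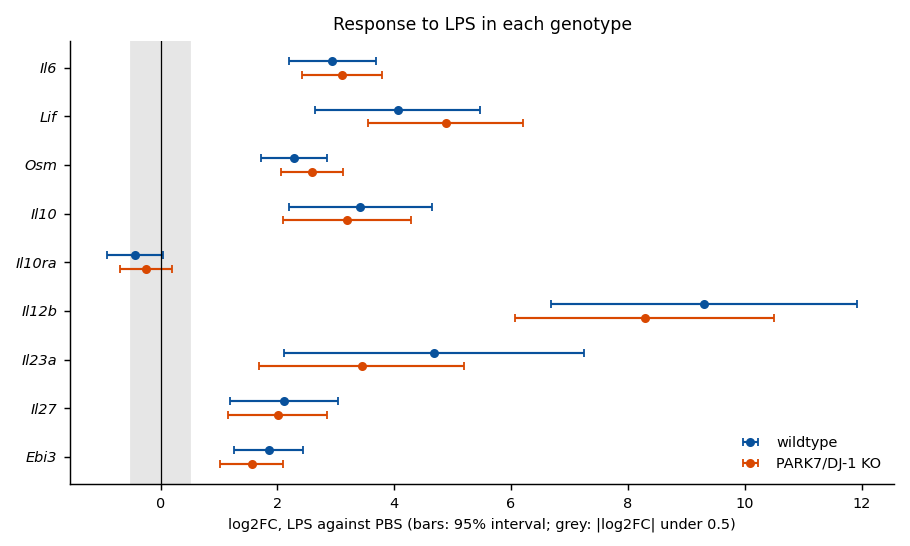
Log2FC of LPS against PBS for 9 of the genes (*Il12a*, at 0 counts in every baseline library, is left out) in mice of each genotype, with 95% intervals as bars and |log2FC| under 0.5 shaded. The intervals of 8 genes lie above the shaded band in both genotypes, those of *Il10ra* cross 0, and the intervals of wildtype and KO overlap for each of the 9 genes.

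Per kb of exon the order of mean levels at baseline was led by *Il10ra* (137 ± 37.9 CPM per kb in wildtype, n = 4, and 138 ± 7.43 in KO, n = 5), followed by *Osm* (20.4 ± 2.34 and 20.4 ± 6.21) and *Ebi3* (6.37 ± 1.48 and 7.54 ± 2.02). *Il27* (2.66 ± 0.566 and 2.40 ± 0.375) and *Il6* (2.55 ± 0.468 and 2.53 ± 0.430) came next and did not differ beyond their spread. *Il10*, *Lif*, *Il12b*, *Il23a* and *Il12a* were below 0.5 CPM per kb on average. After LPS *Osm* had a level like that of its neighbour in the order, *Il10ra*, with 99.6 ± 20.9 CPM per kb in wildtype and 123 ± 43.0 in KO (n = 5 each) against 101 ± 19.7 and 116 ± 40.1. *Il12b*, among the lowest at baseline, came next by its mean, with 67.1 ± 91.8 in wildtype and 50.9 ± 28.1 in KO, ahead of *Ebi3* (22.97 ± 10.2 and 22.2 ± 4.96), *Il6* (19.6 ± 9.98 and 21.7 ± 7.99), *Il27* (11.6 ± 8.21 and 9.67 ± 4.50), *Lif* (5.35 ± 3.18 and 8.35 ± 8.02) and *Il10* (3.73 ± 2.46 and 3.68 ± 1.46). *Il12a* (0.436 ± 0.1997 and 0.306 ± 0.0929) and *Il23a* (0.257 ± 0.173 and 0.452 ± 0.413) stayed last in both genotypes. The place of *Il12b* in wildtype rested on part of the libraries, since in replicates 1 and 2 it measured 8.02 and 7.67 CPM per kb, below *Ebi3* (16.2 and 15.7) and below *Il6*, and in replicate 5 226 CPM per kb.

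Sequence upstream of the start site is shown for 3 genes that rose after LPS, since 1 of them, *Il12b*, had the largest log2FC of the genes with baseline counts and the other 2 carry matches to the motif of the factor that Toll-like receptors activate. RefSeq start sites on GRCm38.p6 (a different build from that of the counts) were given for *Il6*, *Lif*, *Il12a*, *Il12b* and *Ebi3*, with 2 starts for *Il12a*. The 250 bases before each were searched on both strands for the kappaB motif bound by NF-kappaB, for TGANTCA (AP-1) and for TTGNNCAA (C/EBP), which occur in 7.25%, 6.75% and 5.65% of 32851 promoter windows of that length. The sequences read 5' to 3', with matches in capitals.
Il6 (chr5:30012864-30013113, + strand): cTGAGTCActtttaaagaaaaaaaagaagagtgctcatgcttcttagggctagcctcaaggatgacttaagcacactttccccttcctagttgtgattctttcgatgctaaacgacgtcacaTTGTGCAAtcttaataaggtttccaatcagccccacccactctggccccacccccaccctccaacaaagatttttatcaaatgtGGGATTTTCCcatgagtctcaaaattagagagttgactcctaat
Ebi3 (chr17:55952373-55952622, + strand): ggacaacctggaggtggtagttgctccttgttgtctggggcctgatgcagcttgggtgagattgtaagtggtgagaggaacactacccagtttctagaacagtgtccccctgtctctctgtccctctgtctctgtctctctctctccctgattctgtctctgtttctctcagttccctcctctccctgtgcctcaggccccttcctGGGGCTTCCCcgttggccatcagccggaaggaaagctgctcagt
Il12b (chr11:44399813-44400062, + strand): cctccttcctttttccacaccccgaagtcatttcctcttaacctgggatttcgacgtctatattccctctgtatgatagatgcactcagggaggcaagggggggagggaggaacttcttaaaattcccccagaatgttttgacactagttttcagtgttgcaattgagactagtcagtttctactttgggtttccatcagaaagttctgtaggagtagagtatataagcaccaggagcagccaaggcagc
*Il6* held 1 match to each motif, with the kappaB match GGGATTTTCC at positions -44 to -35 from the start, the C/EBP match TTGTGCAA at -128 to -121 and the AP-1 match TGAGTCA at -249 to -243. *Ebi3* held the kappaB match GGGGCTTCCC, also at -44 to -35, and *Lif* a kappaB match at -178 to -169 and an AP-1 match at -228 to -222. No match was found in these windows of *Il12b* or *Il12a*, which says only that these letters do not occur there. A match is a description of the letters and not of a bound site.

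The second question was whether the loss of DJ-1 changed these genes. After LPS none of the 10 genes passed the thresholds for KO against wildtype (unadjusted p under 0.05 and |log2FC| of at least 0.5) in edgeR or DESeq2, which in edgeR 1.31% of all tested genes did, and the values of the genotypes overlapped for each of the 10, against 0.219% of tested genes without overlap. The log2FC ranged from -0.51 ± 0.3997 for *Il12a* (0.542 ± 0.165 CPM in KO and 0.774 ± 0.354 in wildtype, n = 5 each) to 0.82 ± 0.694 for *Il23a* (1.02 ± 0.928 and 0.577 ± 0.389 CPM), 5 genes were above and 5 below 0, and the smallest unadjusted p was 0.218, for *Osm* (edgeR, adjusted p = 1.00). The 95% intervals of the fold, KO over wildtype, were 0.721 to 1.71 for *Il6*, 0.874 to 1.74 for *Osm*, 0.836 to 1.56 for *Il10ra* and 0.675 to 1.39 for *Ebi3*, each of which included 1. They were wider for *Il27* (0.479 to 1.47), *Il10* (0.509 to 1.92), *Il12a* (0.384 to 1.29) and *Lif* (0.728 to 3.35), and widest for *Il12b* (0.272 to 2.12) and *Il23a* (0.645 to 4.84).

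The direction of several of these differences rested on replicate 5 of a group, as the plot of genotype differences shows. For *Il12b* the log2FC of KO against wildtype was -0.40 ± 0.707 with all libraries and 0.89 without wildtype replicate 5 (unadjusted p = 0.158), since that library held 8.23 times the mean of the other 4 wildtype LPS libraries (75.3 ± 74.8 CPM). *Il27* went from -0.25 to 0.22 and *Ebi3* from -0.05 to 0.26 without the same library, which held 2.96 and 2.18 times the mean of the other 4. For *Lif* the log2FC of 0.64 ± 0.525 became -0.11 without KO replicate 5, which held 4.44 times the mean of the other 4 KO LPS libraries, and 1.08 (unadjusted p = 0.0609) without wildtype replicate 5. *Il23a* had 0.82 with all libraries and 0.18 without KO replicate 5. For *Il6* and *Il10*, whose estimates lay near 0, the sign also turned when single libraries were left out, with values down to -0.05 for *Il6* and up to 0.43 for *Il10*. *Osm* had a log2FC of 0.46 without KO replicate 1, at an unadjusted p of 0.0429 (edgeR) but under the 0.5 threshold. No gene of the 10 passed the thresholds with any 1 library left out, or with the library highest in oligodendrocyte markers left out of each group.

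**Figure D3:**
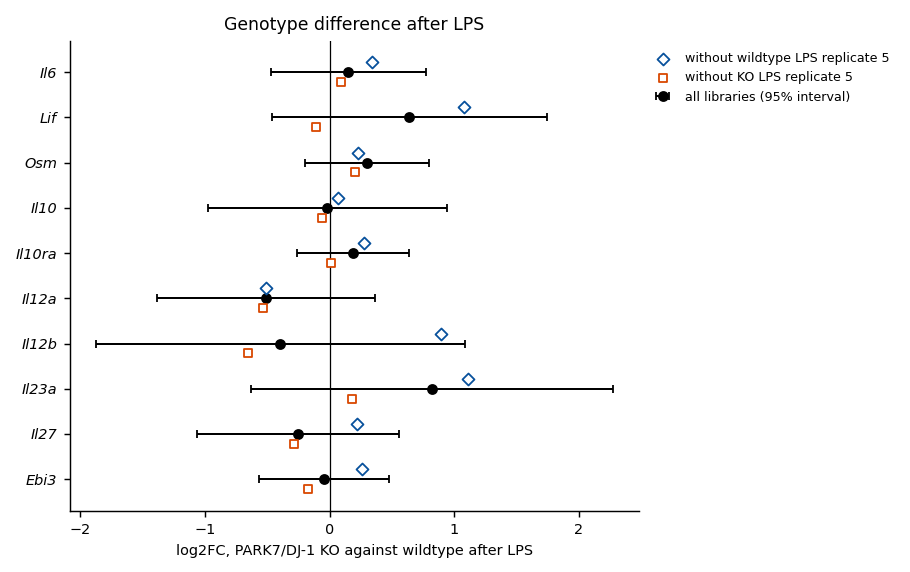
Log2FC of *PARK7*/DJ-1 KO against wildtype after LPS for the 10 genes with all libraries (filled circles, with 95% intervals as bars), without wildtype LPS replicate 5 (diamonds) and without KO LPS replicate 5 (squares). Each interval crosses 0, and the diamonds of *Il12b*, *Il27*, *Ebi3* and *Il10* and the square of *Lif* lie on the other side of 0 from the circles.

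At baseline the 10 genes likewise gave no call between the genotypes, against 0.8% of all tested genes, and no gene of the 10 had values without overlap, against 0.971% of tested genes. *Osm*, *Il10ra* and *Il6* were within 0.02 of 0 on the log2 scale (0.00 ± 0.254, 0.00 ± 0.227 and -0.01 ± 0.331). *Ebi3* had a log2FC of 0.24 ± 0.269 (16.3 ± 4.35 CPM in KO, n = 5, and 13.7 ± 3.20 CPM in wildtype, n = 4, 95% interval of the fold 0.800 to 1.75), *Il10* 0.21 ± 0.596, *Il27* -0.15 ± 0.427 and *Lif* -0.18 ± 0.652. The largest estimates belonged to genes near the floor, *Il23a* with 2.06 ± 1.48 (8 counts over the KO and 1 over the wildtype libraries, unadjusted p = 0.180, edgeR) and *Il12b* with 0.62 ± 1.51 (42 and 19 counts, unadjusted p = 0.684). For *Il23a*, whose 1 wildtype count lay in replicate 2, the estimate ranged from 1.08 (without KO replicate 5) to 3.65 with 1 library left out. For *Il12b* it was 1.86 without wildtype replicate 4. *Il12a* had no count in either genotype and no difference could be estimated. The interaction, which asks whether the LPS response differed between the genotypes, was passed by none of the 10 genes and by 0% of tested genes (adjusted p under 0.05, edgeR, with no gene in DESeq2 either). In edgeR 180 of the 18739 genes had an unadjusted p under 0.05 for the interaction, fewer than that threshold gives where no gene differs. Among the 10 genes its estimate was largest in size for *Il23a* (-1.23, 95% interval -4.37 to 1.90), *Il12b* (-1.02, -4.51 to 2.48) and *Lif* (0.82, -0.93 to 2.58), and the smallest unadjusted p was 0.338, for *Lif*. These 3 estimates rested on single libraries. For *Il12b* the estimate was 0.27 without wildtype LPS replicate 5 and -2.25 without wildtype baseline replicate 4, and for *Lif* 0.071 without KO LPS replicate 5 and 1.26 without wildtype LPS replicate 5. For *Il23a* it ranged from -2.84 to -0.27 with 1 library left out, with -0.27 without KO baseline replicate 5. Without wildtype baseline replicate 2, which held its 1 count, the wildtype baseline of *Il23a* is at 0 and no count sets the size of the estimate. The estimates of *Il6*, *Osm*, *Il10*, *Il10ra*, *Il27* and *Ebi3* lay between -0.29 and 0.30, and that of *Il12a* could not be given without baseline counts.

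Since several of these cytokines are dimers or act against each other, 5 ratios of counts per kb were compared between the genotypes after LPS, with exact two-sided permutation tests whose smallest possible p was 0.00794. The ratio of *Il12b* to *Il12a*, the chains of IL-12, was 87.1 to 243 in KO and 19.7 to 494 in wildtype libraries, with a difference of 0.97 between the mean log2 ratios (7.14 ± 0.564 in KO and 6.16 ± 1.93 in wildtype, n = 5 each, exact permutation p = 0.310, adjusted over the 5 ratios 0.944). Without wildtype replicate 5, the library with the highest ratio, the difference was 1.67 (exact permutation p = 0.0238, not adjusted over the ratios, higher in each of the 5 KO libraries than in 3 of the 4 wildtype libraries). With wildtype replicate 2 or replicate 4 left out instead, the exact permutation p was 0.603 or 0.325. The denominator *Il12a* had only 6 to 21 counts per LPS library. *Il12b* exceeded *Il23a*, its partner in IL-23, by 57.8 to 504 times in KO and 18.1 to 476 times in wildtype, and the means did not differ beyond their spread (difference -0.08, exact permutation p = 0.944).

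The IL-27 chains were closer to each other, with *Ebi3* at 1.41 to 4.06 times *Il27* in KO and 1.51 to 3.59 times in wildtype (difference of mean log2 ratios 0.14, exact permutation p = 0.706). The differences of the mean log2 ratios of *Osm* to *Lif* (-0.04, exact permutation p = 0.905) and of *Il6* to *Il10* (0.10, exact permutation p = 0.778) were also within the spread of the libraries. *Il6* was 3.47 to 12.2 times *Il10* per kb in KO and 3.84 to 7.45 times in wildtype. In the plot of ratios the ranges of the 2 genotypes overlap in each panel.

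**Figure D4:**
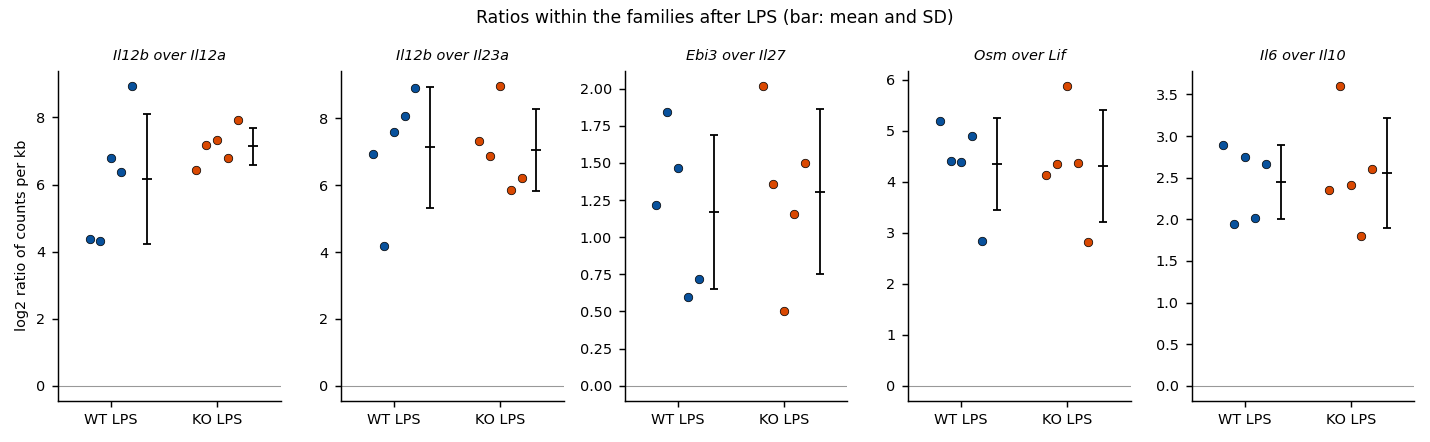
Log2 ratio of counts per kb for 5 pairs of genes in the 5 wildtype and 5 *PARK7*/DJ-1 KO libraries after LPS, 1 point per library, with mean and SD beside them. *Il12b* over *Il12a* spans 4.30 to 8.95 in wildtype and 6.44 to 7.92 in KO, and *Ebi3* over *Il27* stays between 0.50 and 2.02.

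Within a group the same library was often the highest or the lowest for several genes, as the plot of deviations shows. Of the 10 genes, wildtype LPS replicate 5 had the highest wildtype value for 6 (*Lif*, *Il10ra*, *Il12b*, *Il23a*, *Il27* and *Ebi3*), and replicate 4 that for the other 4. KO LPS replicate 1 had the lowest KO value for 9 (all but *Lif*), and wildtype LPS replicate 2 the lowest wildtype value for 6. These 2 libraries had the highest summed oligodendrocyte markers of their groups (11235 and 6692 CPM, against 1086 to 3915 and 515 to 3881 CPM in the others). Wildtype LPS replicate 5 had the lowest total count (11936364) and the highest sum of 7 dendritic cell markers (225 CPM, against 40.4 to 116 CPM in the other 4), most of it from *Ccr7*, a chemokine receptor that maturing myeloid cells also express, at 199 CPM. Of the other 6 markers *Zbtb46* (19.2 CPM), *Flt3* (1.11 CPM) and *Xcr1* (0.171 CPM) were also highest among the wildtype LPS libraries there, while *Cd209a* (4.01 CPM), *Itgae* (1.79 CPM) and *Clec9a* (0 CPM) were at the lowest value of the group. KO LPS replicate 5, the highest KO library for *Lif*, *Il10ra*, *Il12b*, *Il23a* and *Ebi3*, had the highest KO LPS values of *Ccr7* (152 CPM), *Zbtb46* (25.8 CPM) and *Itgae* (3.03 CPM) and the lowest of *Cd209a* (6.79 CPM), with *Flt3* at 0.794 CPM and *Xcr1* and *Clec9a* at 0, and it had the lowest sum of 5 endothelial markers (57.1 CPM, against 240.2 to 528 CPM in the other KO LPS libraries). The part of these markers in the spread of the cytokine genes was not tested.

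**Figure D5:**
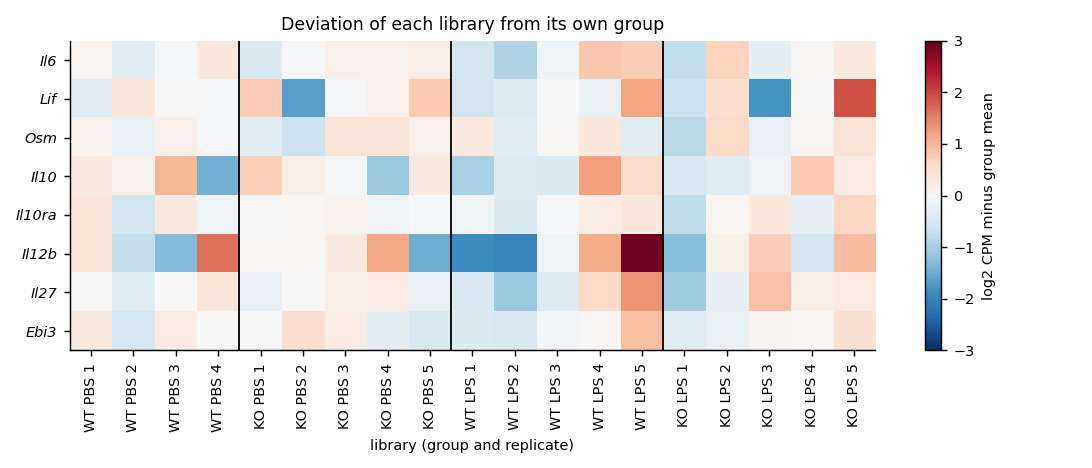
Log2 CPM of 8 genes minus the mean of the library's own group, for the 19 libraries in columns, with red for above and blue for below the group mean. The columns of wildtype LPS replicate 5 and KO LPS replicate 1 stand out, as does the *Lif* value of KO LPS replicate 5, and the *Il12b* row varies most.

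Over the 19 libraries, after subtraction of each group's mean log2 CPM, *Il12b* and *Il27* deviated together (Pearson r = 0.83, Spearman rho = 0.82), as did *Il6* with *Il12b* (0.71 and 0.71) and with *Il27* (0.71 and 0.67), and *Il10ra* with *Ebi3* (0.73 and 0.83). *Osm* and *Ebi3* did not (-0.05 and 0.04), nor did *Osm* and *Il10* (-0.02 and 0.00). Points of these correlations share their library and thus its depth and composition. Among all protein-coding genes with a mean of at least 1 CPM, the genes most like *Osm* were *Zfp36* (r = 0.95), *Ier3* (0.90) and *Junb* (0.89), of which *Zfp36* encodes an mRNA-decay factor and *Junb* an AP-1 subunit. Those most like *Il27* were *Cd80* (0.93), a costimulatory ligand, *Mmp14* (0.93) and *Malt1* (0.92), and those most like *Il12b* were *Ch25h* (0.88), *Kcna3* (0.86) and *4921524J17Rik* (0.84). *Il6* was most like *Il1a* (0.87), *Cxcl16* (0.86) and *Bcl2a1d* (0.86), *Ebi3* most like *Syk* (0.90), *Ifnar2* (0.89) and *Rhoq* (0.89), and *Il10ra* most like *Pip5k1a* (0.97), *Abca1* (0.97) and *Hs6st1* (0.96). For *Lif* they were *Lonp2* (0.88), *Spen* (0.85) and *Rfx1* (0.85) and for *Il10* they included *Hdac9* (0.75) and *Ripk2* (0.73). With the 2 libraries farthest from the median left out, these r values were between 0.74 and 0.95.

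The receptors and signalling proteins of the families gave a mixed picture after LPS. Of 11 further receptor chains 10 were tested (*Il23r* was too low), of which 4 were higher and 3 lower in wildtype and 3 higher and 3 lower in KO, against 18.4% higher and 17.4% lower in wildtype and 20.1% and 19% in KO over all tested genes, so that the share of lower receptor genes was not far from that background. Of the 6 receptor chains of the IL-6 family in the list 3 fell in both genotypes, namely gp130 itself (*Il6st*, log2FC -0.68 ± 0.141 in wildtype and -0.59 ± 0.134 in KO), the IL-6 receptor chain *Il6ra* (-0.67 ± 0.191 and -0.69 ± 0.182) and the LIF receptor chain *Lifr* (-0.78 ± 0.247 and -0.63 ± 0.234). *Il11ra1* (-0.01 ± 0.156 and -0.08 ± 0.147) and *Cntfr* (-0.37 ± 0.678 and 0.30 ± 0.643) did not pass. The oncostatin M receptor chain *Osmr* rose in both (3.09 ± 0.547 and 3.17 ± 0.502, from 10.5 ± 5.68 to 89.6 ± 42.0 CPM in wildtype and from 9.15 ± 2.52 to 82.2 ± 42.7 CPM in KO). *Il12rb2* (1.65 ± 0.321 and 1.40 ± 0.291) and *Il27ra* (1.93 ± 0.427 and 2.14 ± 0.398) rose in both as well, at low levels of at most 9.74 ± 2.80 and 2.89 ± 0.681 CPM on average. *Il12rb1*, the receptor chain that binds p40, passed the test in wildtype (1.65 ± 0.536, adjusted p = 0.0186) and not in KO (1.06 ± 0.497, adjusted p = 0.0918), a difference for which the interaction was not significant (edgeR, adjusted p = 1.00). *Il10rb*, which completes the IL-10 receptor, had a log2FC of -0.22 ± 0.150 and -0.19 ± 0.142 and did not pass.

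The background for each of the next lists was again 18.4% higher and 17.4% lower in wildtype and 20.1% and 19% in KO over all tested genes. Of 6 downstream kinases and STATs 4 were higher in wildtype and 5 in KO, with *Stat3*, the main transcription factor of both IL-6 and IL-10, at 1.72 ± 0.187 and 2.06 ± 0.174 on the log2 scale. All 4 feedback inhibitors rose in both genotypes, and *Socs3*, which binds gp130, went from 198 ± 30.1 to 1942 ± 535 CPM in wildtype (log2FC 3.30 ± 0.270) and from 185 ± 43.5 to 2251 ± 652 CPM in KO (3.602 ± 0.2503). Of 6 genes that IL-10 induces in macrophages 5 rose in wildtype and 6 in KO, among them *Nfil3* (4.50 ± 0.251 and 4.21 ± 0.223), a repressor of *Il12b* in macrophages. Of 12 regulators of these cytokine genes 8 rose and 1 fell in wildtype, and 9 rose and 1 fell in KO. The gene that fell was *Maf* (-1.15 ± 0.216 and -1.61 ± 0.210), an activator of *Il10* in macrophages.

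Of 11 other ligands of the families 3 were tested. *Clcf1*, another gp130 cytokine, fell in both genotypes (log2FC -2.10 ± 0.255 and -2.07 ± 0.246, from 32.97 ± 6.67 to 7.84 ± 1.41 CPM in KO), in the opposite direction to *Il6*, *Lif* and *Osm*. *Ctf1* passed as lower in KO (-1.74 ± 0.468, adjusted p = 0.00472) and not in wildtype (-0.88 ± 0.490, adjusted p = 0.165), and the interaction was not passed (edgeR, adjusted p = 1.00). *Il19*, of the IL-10 family, had 0 counts in each baseline library and 132 counts over the 5 wildtype and 113 over the 5 KO libraries after LPS, which made its mean at least 9.84-fold and at least 8.21-fold higher. In wildtype 84 of the 132 counts lay in 1 library (mean 1.77 and median 0.903 CPM), on which that bound rests in large part. Between the genotypes after LPS no gene of these lists passed the thresholds, and the median log2FC of the lists lay between -0.36 and 0.22. In edgeR's fit 5 of their 40 tested genes, against 2.57% of all tested genes, had an unadjusted p under 0.05, each with |log2FC| under 0.5, namely *Jak1* (0.35), *Stat3* (0.37), *Etv3* (0.48), *Cebpd* (-0.42) and *Maf* (-0.48). The smallest of these unadjusted p-values was 0.00106, for *Cebpd* (edgeR, adjusted p = 1.00).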

How the data were processed

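Stranded total RNA libraries, depleted of ribosomal RNA, were made from CD11b+ brain cells of 19 mice and sequenced as paired reads of 75 bases. According to the study's methods and the labels, the authors trimmed reads with Cutadapt (given as version 0.17.4), aligned them with STAR 2.7.9a to GRCm39 with Ensembl 108, and deposited raw counts per gene that were not normalized. Gene names were taken from GENCODE mouse release 39.

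Groups came from the labels. The counts were filtered (filterByExpr, 18739 of 56980 genes left), scaled with TMM and fitted with edgeR 4.0.16 (R 4.3.3) by its quasi-likelihood test in 1 model of 4 groups, with Benjamini-Hochberg adjustment over all tested genes. LPS effects were called at an adjusted p under 0.05 and genotype effects, after the study's own thresholds, at an unadjusted p under 0.05, both with |log2FC| of at least 0.5. Intervals are 95% intervals from the fit. Ratios between genes used counts per kb of exon with a pseudocount of 0.5 counts and exact permutation tests (scipy 1.17.1). Figures were drawn with matplotlib 3.10.9. Fits were tested on simulated data first.

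The genes, the pathway and marker lists and the tests were chosen with earlier results of these data known. All 10 genes are named in each comparison, pathway genes where a result turns on them, and as most alike the 3 protein-coding genes (mean of at least 1 CPM) with the highest correlation of log2 CPM (prior count 2) around the group means, of which 1 gene is not reported here. Alternatives were DESeq2 1.42.0, its size factors in edgeR, other filters, a replicate block, fits of only the 2 groups compared, single libraries left out and, chosen after the data were seen, the library highest in oligodendrocyte markers left out of each group. Each library came from 1 mouse, and no 2 libraries of a group agreed within sampling noise. Same-numbered libraries of LPS and baseline within a genotype mostly correlated positively, and those of KO and wildtype within a treatment went both ways. The libraries highest in oligodendrocyte markers were replicate 1 in KO and replicate 2 in wildtype, both at baseline and after LPS. The numbers were not taken as pairs in the main fit, and the replicate block is given as an alternative.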

Additional observations from a re-analysis of the deposited data

Results flagged for a closer look

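In 4 of 38 sets of a gene and a group, 1 library lay apart from the others by Dixon's test at the 95% level, which chance does in about 1 of 20 sets. In 3 of the 4 it was wildtype LPS replicate 5, at 619 CPM for *Il12b*, 50.5 CPM for *Lif* and 87.3 CPM for *Ebi3*. The other was *Il23a* in wildtype baseline replicate 2, at 0.0606 CPM, which is 1 count against 0 in the remaining 3 libraries.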

How the results depend on the processing

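The 9 genes called higher after LPS in each genotype were also 9 with any 1 library of the groups compared left out, with DESeq2, with its size factors and with the replicate block, and the 0 calls between the genotypes and for the interaction stayed at 0 under every alternative run. With at least 10 counts required in every library, 4 genes were called in wildtype and 4 in KO, because the genes with few counts at baseline were no longer tested, and with only the 2 groups compared 7 in each genotype, because *Il12a* and *Il23a* were not. Leaving out the library highest in oligodendrocyte markers from each group, chosen after the data were seen, added *Il10ra* in wildtype.

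The count of all genes called for KO against wildtype after LPS, 245, was 854 without a filter, 111 with at least 10 counts in every library, 105 with only the 2 groups compared and 2 at an adjusted p under 0.05, and 228 to 434 with 1 library left out (434 without KO LPS replicate 5). At baseline, 150 became 680, 58 and, at an adjusted p, 1, and 234 with the replicate block, which gave 0.48 for the log2FC of *Il12b* between the genotypes after LPS and changed no call of the 10 genes. Same-numbered libraries of LPS and baseline within a genotype correlated between -0.04 and 0.58. Those of KO and wildtype within a treatment correlated between -0.57 and 0.30.

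The differences in log2 ratio ranged from 0.51 to 1.67 for *Il12b* over *Il12a* with 1 library left out, from -0.82 to 0.36 for *Il12b* over *Il23a*, from -0.0397 to 0.34 for *Ebi3* over *Il27*, from -0.43 to 0.34 for *Osm* over *Lif* and from -0.16 to 0.29 for *Il6* over *Il10*. The difference for *Il12b* over *Il23a* turned to 0.019 with a pseudocount of 2 counts, and that for *Osm* over *Lif* to 0.023 without the libraries highest in oligodendrocyte markers. The cause of these changes was not tested. *Il12a* and *Il23a* had at most 21 and 35 counts in a library, which limits the precision of their estimates.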
